A study of Homo sapiens with 2 samples.

Results

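Long intergenic noncoding RNAs that carry a LINC number were described here in IGROV1-R10, an established human ovarian carcinoma cell line derived from IGROV1 and resistant to cisplatin. Members were the LINC-numbered symbols selected on their measured signal: the higher of the 2 array values had to reach the median of all deposited values, called the filter here. This left 150 of 538 LINC symbols on the array (27.9%), among 14373 of 22465 genes above the same level (64.0%). LINC00941 was left out by name. It read 7.68 on the miR-491-5p array and 8.91 on the control array, a difference of -1.23, and with it the group would hold 1 member past 2-fold. In the study, 1 culture received a duplex of miR-491-5p and the other a control miRNA duplex. Transfection used 20 nM of duplex and took place 24 hours after seeding. From each culture, 100 ng of total RNA was labelled for a whole-transcript array. Each group had 1 array, so there is no spread between cultures, no difference was tested, and no p-value is given. Values are log2 signals, differences are miR-491-5p minus control, and "higher" and "lower" refer only to this pair of arrays.

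LINC RNAs are transcribed between protein-coding genes, and most are spliced, capped and polyadenylated like messenger RNAs. Some act in the nucleus on nearby chromatin, some bind proteins or miRNAs in the cytoplasm, and a few encode small proteins. Many are restricted to a few cell types. A transfected miRNA duplex loads its guide strand into Argonaute, which then binds RNAs paired to the seed, bases 2 to 8 of the miRNA. Its effect on an RNA is known best for sites in messenger RNAs, but noncoding RNAs in the cytoplasm can be bound as well. The mature miR-491-5p is shown because it is the agent whose effect the arrays measure. RefSeq places it on chromosome 9 of GRCh38.p14, at chr9:20716120-20716141 on the plus strand, and the capitals mark its seed.
hsa-miR-491-5p: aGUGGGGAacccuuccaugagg
Transcript sequences of the LINC RNAs were not used here, so sites for this seed were not counted.

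The LINC RNAs differed little between the arrays, and none of the 150 reached 2-fold in either direction. This count of 0 depends on the exclusion by name of LINC00941 (-1.23), with which it would be 1 of 151. Over all genes above the filter, from which none was left out, 0.758% were lower by 2-fold or more on the miR-491-5p array. Higher by as much were 0.0487%, so a count of 0 or 1 lies near the background. At 1.5-fold, 3 members were lower (2.0%) and 2 higher (1.33%), against 3.62% lower and 0.675% higher over all genes. Antisense transcripts, the other large class of named long noncoding RNAs here, gave 1.03% lower and 0.685% higher of 292. Protein-coding genes gave 3.7% lower and 0.662% higher of 11791. These shares rest on 5 LINC members, and no difference between the classes was tested.

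The middle of the distribution was the same as for other genes. The median difference was -0.07 over the 150 LINC RNAs, -0.07 over all genes and -0.045 over antisense transcripts. After centring on the median of all genes the LINC median was 0.0, so the small negative value is shared with the whole array. Of the 150, 94 were below 0, 53 above and 3 at 0, and 98 (65.3%) lay within 0.2 of 0, against 67.4% of all genes. Differences ran from -0.74 to 0.85, and the middle 95% from -0.505 to 0.44.

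**Figure D1:**
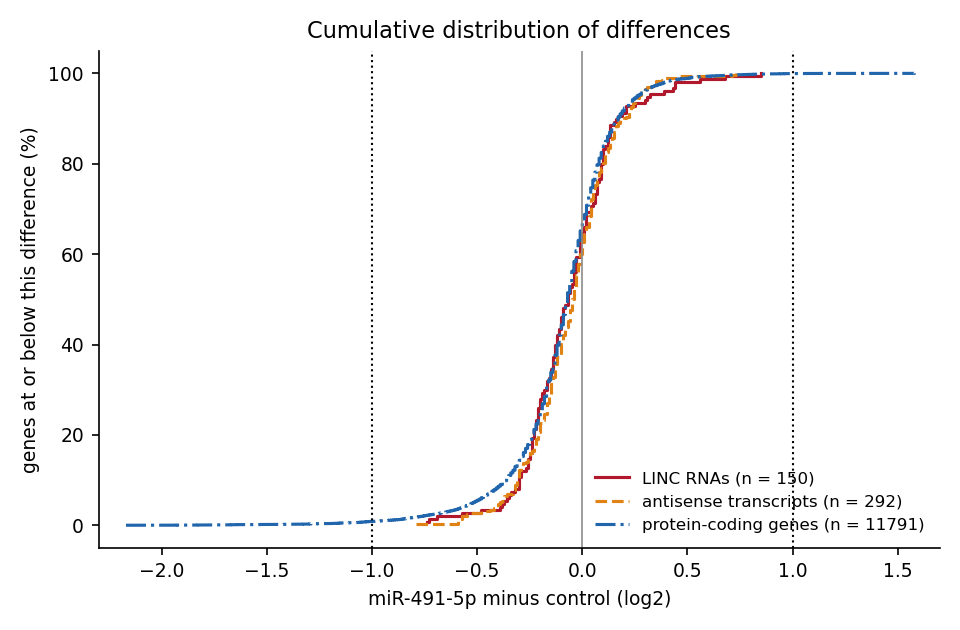
Cumulative share of genes (y axis, percent) at or below each miR-491-5p minus control difference (x axis, log2) for the 150 LINC RNAs, 292 antisense transcripts and 11791 protein-coding genes above the filter. Dotted lines mark 2-fold. The LINC curve, drawn without LINC00941, starts at -0.74 and ends at 0.85, inside both lines. The protein-coding curve extends to -2.17 and 1.58.

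Most members read close to the filter. For 87 of them the higher value was less than 1 log2 above it, and none of these reached 1.5-fold (over all genes in that range 0.998% were lower and 0.242% higher). Among the 43 members from 1 up to 3 log2 above the filter, 2 were at least 1.5-fold lower and 1 higher, where all genes gave 2.49% lower and 0.509% higher. Among the 20 at least 3 log2 above it, 1 was lower and 1 higher. In this brightest range 5.47% of all genes were at least 1.5-fold lower and 0.967% higher. The median level of the LINC RNAs was 6.175 on the miR-491-5p array and 6.225 on the control array, against 8.38 and 8.47 over all genes.

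The 3 members with the largest negative differences were LINC00997, LINC02274 and LINC00152. LINC00997, on chromosome 7, read 6.77 on the miR-491-5p array and 7.51 on the control array (1.67-fold lower). LINC02274, on chromosome 14, read 7.23 and 7.96 on the same arrays (1.66-fold lower). Both had values above the filter on either array, and no function is given for them here.

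LINC00152, now named CYTOR for cytoskeleton regulator RNA, is a cytoplasmic transcript raised in many carcinomas. It read 9.53 on the miR-491-5p array and 10.22 on the control array, a difference of -0.69 (1.61-fold lower). It was the brightest of the members past 1.5-fold on the low side. LINC01963 read 10.33 and 10.90, a difference of -0.57 that stayed just under 1.5-fold. LINC00515 followed at 6.59 against 7.07 (-0.48).

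Below these the differences shrank quickly. LINC00958, also called BLACAT2 and described in bladder cancer, was a bright member and read 12.36 on the miR-491-5p array and 12.73 on the control array (-0.37). LINC00239 differed by -0.38, LINC00887 by -0.36 and LINC00701 by -0.35. The remaining members among the 16 with the largest negative differences lay between -0.39 and -0.30. They were LINC00273, LINC00940, LINC02582, LINC00449, LINC00552, LINC02138 and LINC02912. Of these, LINC00940 (5.38 against 5.72), LINC02582 (5.43 against 5.75), LINC00552 (5.41 against 5.71) and LINC02912 (5.43 against 5.73) passed with the control value alone, so the rule set their sign.

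**Figure D2:**
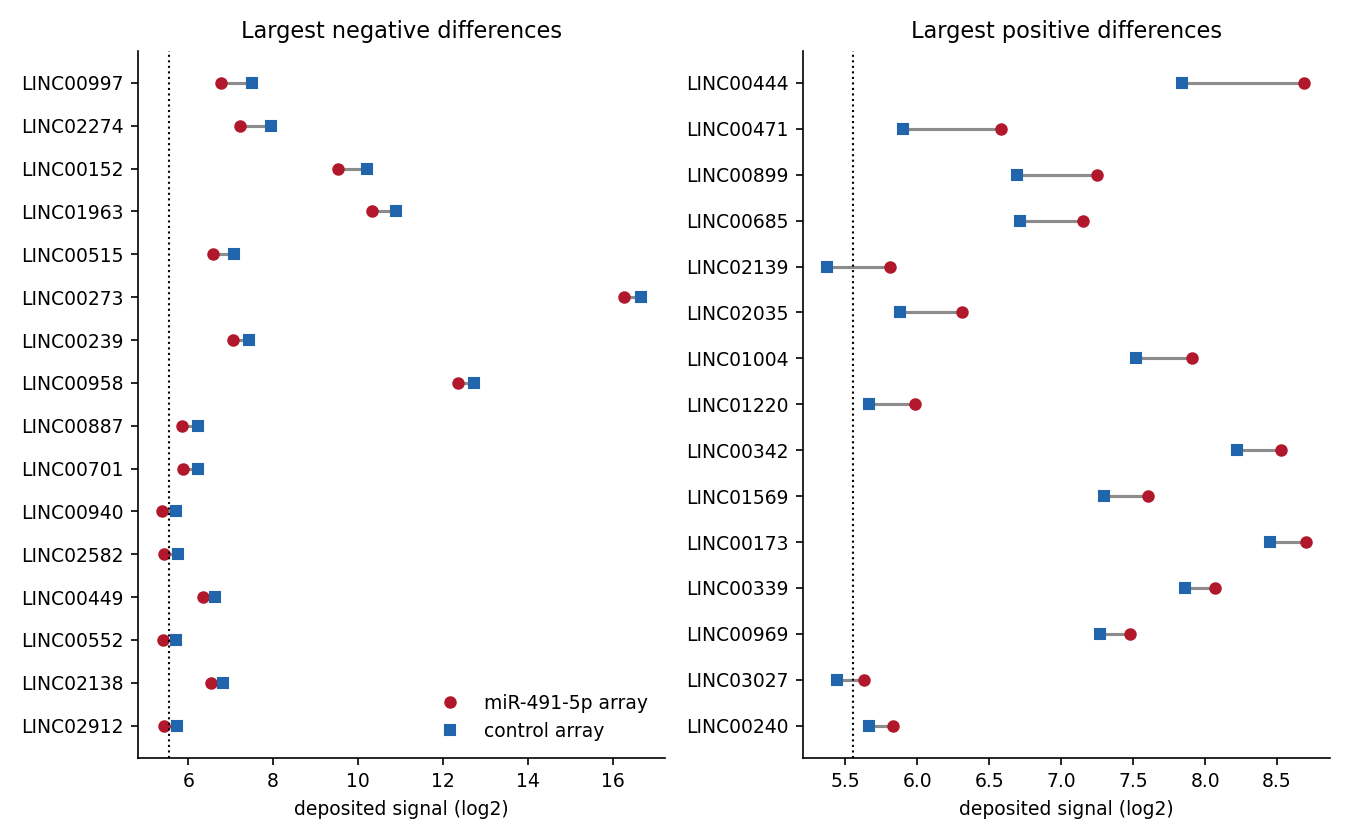
Deposited log2 signal (x axis) on the miR-491-5p array (circles) and the control array (squares) for the 16 LINC RNAs with the largest negative differences, ties included, and the 15 with the largest positive ones; the dotted line is the filter and the panels have different x scales. Most pairs lie within 0.5 of each other, and the exceptions are LINC00997, LINC02274, LINC00152 and LINC01963 on the low side and LINC00444, LINC00471 and LINC00899 on the high side.

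The member with the largest positive difference was LINC00444 on chromosome 13, at 8.69 on the miR-491-5p array and 7.84 on the control array (1.80-fold higher). RefSeq now lists LINC00444 only as a synonym of SUCLA2, which encodes a subunit of mitochondrial succinyl-CoA synthetase. The SUCLA2 probe set itself read 11.96 and 11.77, a difference of 0.19. The larger value thus belongs to a separate probe set whose current record is a protein-coding gene.

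LINC00471, on chromosome 2, read 6.58 on the miR-491-5p array and 5.90 on the control array (1.60-fold higher). LINC00899, on chromosome 22, read 7.25 and 6.69, a difference of 0.56 that did not reach 1.5-fold as deposited and did after centring (0.63). LINC00471 and LINC00899 had the largest positive differences among members whose RefSeq record is a long noncoding RNA.

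LINC00685, in the pseudoautosomal region of chromosome X, read 7.15 against 6.71 (0.44). LINC02139 read 5.81 against 5.37 (0.44), and only its miR-491-5p value passed the filter, so the rule set its sign. LINC02035 read 6.31 against 5.88 (0.43) and LINC01004 7.91 against 7.52 (0.39). LINC01220 differed by 0.32, LINC00342 by 0.31 and LINC01569 by 0.30. LINC00173, described in granulocytes, read 8.70 against 8.45 (0.25). The other 4 of the 15 largest positive differences, LINC00339, LINC00969, LINC03027 and LINC00240, lay between 0.17 and 0.21. Of these, LINC03027 (5.63 against 5.44) reached the filter on the miR-491-5p array alone, so the rule set its sign too.

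Of the 12 members with the highest readings, LINC01963 (-0.57), LINC00273 (-0.39), LINC00958 (-0.37) and LINC00641 (-0.29) had the larger differences, all negative, and the others differed by at most 0.12 either way. Readings of different probe sets depend on their probes, so their order is not an order of RNA amounts. LINC00273 had the highest reading, 16.27 on the miR-491-5p array and 16.66 on the control array (-0.39). A second LINC00273 probe set read 5.80 and 6.02 (-0.22), so the 2 probe sets of this symbol disagree on its level by far more than the arrays do. LINC01000 read 14.20 against 14.11, LINC01001 13.00 against 12.90, LINC00999 12.24 against 12.14 and LINC01061 11.94 against 11.85, with differences of 0.09 to 0.10.

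LINC01002 read 12.80 on the miR-491-5p array and 12.83 on the control array. LINC00963, described in androgen-independent prostate cancer cells, read 12.89 and 12.95, and its second probe set 8.85 and 8.96 (-0.11). LINC00265 read 12.11 and 12.23. LINC00472, described as a tumour suppressor in breast cancer, read 10.80 and 10.76, and LINC00641 10.43 and 10.72 (-0.29). Centring on the median of all genes turned the sign of LINC00963 and LINC01002, whose differences were smaller than the shift of 0.07.

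Some bright members have near-copies elsewhere in the genome. RefSeq promoter windows run from 250 bases before the transcript start to 50 after it, and those of LINC01002 and LINC01061 could be compared. Compared end to end, they differ by 55 edits over 300 bases. The LINC01061 window begins further along the same sequence, so this count includes the unmatched ends. Within the stretch that both windows hold, only a few bases differ. The LINC01002 window is 1 edit away from those of LOC100132062 and LOC100132287, and the LINC01061 window is 8 edits from that of LOC107985355. Transcript and probe sequences were not compared, so whether the probe sets also read these copies was not tested, and the values are uncertain as values of a single gene. The windows are shown because they make the likeness visible, with each CG dinucleotide in capitals. LINC01002 lies at chr19:202160-202459 on the minus strand of GRCh38.p14, with 1 CG, and LINC01061 at chr4:119410611-119410910 on the minus strand, with 2.
LINC01002: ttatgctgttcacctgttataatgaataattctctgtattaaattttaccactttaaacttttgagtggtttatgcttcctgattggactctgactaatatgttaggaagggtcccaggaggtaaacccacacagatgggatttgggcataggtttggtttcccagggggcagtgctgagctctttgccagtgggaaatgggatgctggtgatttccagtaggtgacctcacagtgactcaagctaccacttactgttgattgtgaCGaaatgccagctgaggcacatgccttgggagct
LINC01061: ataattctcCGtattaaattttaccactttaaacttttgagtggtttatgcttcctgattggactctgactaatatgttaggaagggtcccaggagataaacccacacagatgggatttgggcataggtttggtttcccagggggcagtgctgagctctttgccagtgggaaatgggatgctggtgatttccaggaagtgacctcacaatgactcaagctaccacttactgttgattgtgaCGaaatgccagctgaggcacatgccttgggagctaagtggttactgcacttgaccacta
LINC03009 is a similar case, since its window lies 25 edits from that of POM121, which encodes a nuclear pore protein. It read 9.19 against 9.40 (-0.21).

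LINC RNAs studied in carcinoma showed no common direction. Of 22 listed, 15 were on the array by that symbol and 9 passed the filter, of which 5 were below 0 and 4 above, with a median of -0.03. LINC00152 was the only one of the 9 past 1.5-fold. LINC00958 and LINC00963 are given above. LINC00665, reported to encode a micropeptide and not part of the list of small-protein genes, read 6.09 against 6.29 (-0.20), and LINC00662 7.78 against 7.81, a difference that turned positive after centring. LINC00520, known as LEENE for its action on endothelial nitric oxide synthase, read 6.21 against 6.14. LINC00339, which neighbours an endometriosis risk locus, read 8.07 against 7.86. Of the 6 below the filter, LINC00511 (5.33 against 5.12) and LINC00460 (4.68 against 4.50) are examples.

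Few members belonged to the lists of small-protein genes and of well-described functions. Of 10 listed for small proteins, 4 were on the array by that symbol and only LINC00467, whose product binds ATP synthase in colorectal cancer cells, passed the filter (7.47 against 7.45). Under their present symbols, SMIM26 (LINC00493) read 9.31 against 9.50 (-0.19) and TMEM238L (LINC00675) 5.30 against 5.68 (-0.38). LINC00948, which encodes the muscle micropeptide myoregulin, read 4.96 against 4.89. LINC00961, which encodes the lysosomal peptide SPAAR, read 5.19 against 5.17. Of 9 listed for well-described functions, 3 were on the array by that symbol and LINC00152 alone passed. LINC00473, a CREB-responsive RNA, read 4.57 against 4.35, and LINC00261, an endodermal RNA, 4.18 against 4.16. NORAD, formerly LINC00657, sequesters Pumilio proteins and lies outside the group under its present symbol. It read 13.20 on the miR-491-5p array and 12.73 on the control array (0.47).

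Neighbouring protein-coding genes showed little shared direction with the LINC RNAs. For 96 members the nearest protein-coding gene in the RefSeq table was also above the filter, and 52 pairs had the same sign. Some of these pairs hold a member that passed on 1 array only, so the rule set its sign. Across these pairs Pearson's r was 0.02 and Spearman's rho 0.03, a description over genes from the same 2 arrays. Among the 9 pairs whose neighbour was past 1.5-fold, 7 had the same sign. Over these 9 pairs Pearson's r was 0.33 and Spearman's rho -0.01. Of those neighbours 7 were lower and 2 higher, and 62.7% of all members were below 0, so the count of like signs is not read as a link. In the pair of LINC00661 (5.54 against 5.75) and TPM4, only the control value of LINC00661 passed the filter, so the rule set its sign. A link was not tested. The 2 neighbours past 2-fold are named after their values were seen. CDH5, which encodes VE-cadherin, read 11.10 on the miR-491-5p array and 13.23 on the control array. LINC00920, paired with it, read 6.45 and 6.33 (0.12). EMP1, which encodes an epithelial membrane protein, read 9.26 and 11.04, while LINC01559 stayed near the filter on both arrays (-0.10).

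The nearest coding genes of the members with the largest differences varied. LINC00997 (-0.74) has KBTBD2 as its nearest coding gene, at 10.77 against 10.75. LINC02274 (-0.73) has PTGR2, a prostaglandin reductase, at 10.59 against 10.60, and LINC01963 (-0.57) has XRCC5, which encodes the DNA repair protein Ku80, at 14.25 against 14.23. These 3 neighbours were within 0.02 of 0. LINC00515 (-0.48) has MRPL39, a mitochondrial ribosomal protein gene, which was lower as well, at 9.80 against 10.11 (-0.31). LINC00471 (0.68) has NMUR1, a neuromedin receptor, at 5.66 against 5.61. Further down the same ranking, LINC01220 (0.32) has FOS, an AP-1 subunit, which read 8.19 against 7.60 (0.59). LINC02912 (-0.30) has MYC, a growth-promoting transcription factor, at 12.43 against 12.97 (-0.54). In both of these pairs the signs were the same. For LINC02912 only the control value passed the filter, so the rule set its sign and the match with MYC carries no information. LINC00472 (0.04), named for its level, has OGFRL1, at 12.93 against 13.49 (-0.56).

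**Figure D3:**
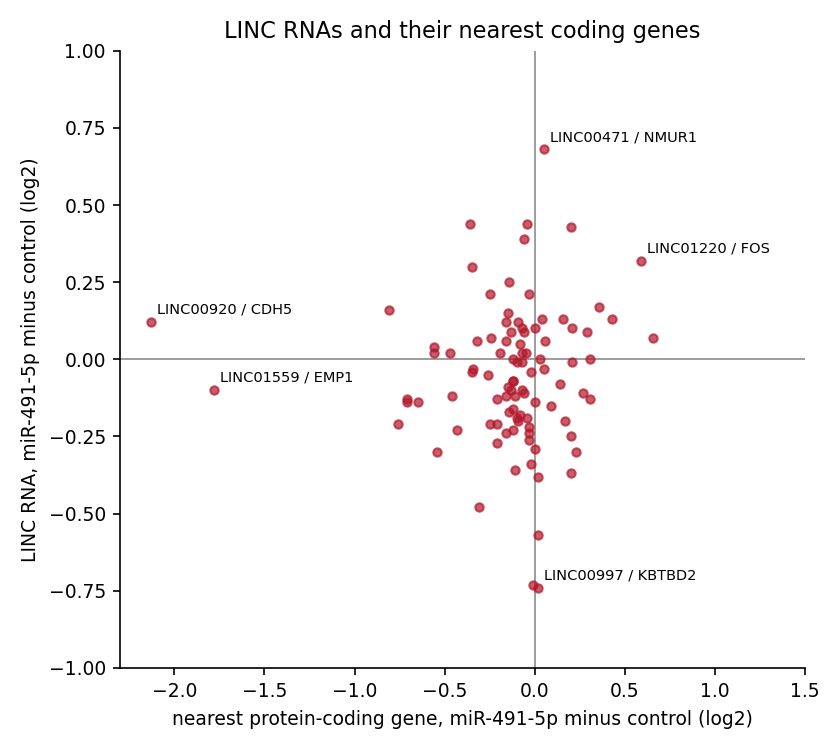
Difference of each LINC RNA (y axis, log2) against that of its nearest protein-coding gene (x axis, log2) for the 96 pairs above the filter, both as miR-491-5p minus control. The points form no diagonal: LINC00920 and LINC01559 stay near 0 beside CDH5 and EMP1, and LINC00997 and LINC00471 lie far from 0 beside KBTBD2 and NMUR1, which do not.

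Some members start within 1000 bases of the start of a protein-coding gene on the opposite strand. Both transcripts were above the filter in 5 such pairs. LINC00685 read 7.15 on the miR-491-5p array and 6.71 on the control array, while its partner GTPBP6, a GTP-binding protein, read 6.81 and 7.17 (-0.36). LINC00449 read 6.34 and 6.64 (-0.30), while TM9SF2, an endosomal membrane protein, read 14.07 and 13.84 (0.23). The members of these pairs thus differed in opposite directions. LINC01547 read 5.45 and 5.57 (-0.12), and its partner SLX9 differed by -0.11. Only the control value of LINC01547 passed the filter, so the rule set its sign and the match with SLX9 carries no information. LINC00205 (0.02) stood beside POFUT2 (-0.19), and LINC00894, now EOLA2-DT, was at 0 beside EOLA2 (0.31).

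The windows of LINC00685 and LINC00449 are shown because the DNA around them also carries the start of the partner gene. Each CG dinucleotide is in capitals. LINC00685 lies at chrX:318895-319194 on the plus strand of GRCh38.p14 with 32 CG, and LINC00449 at chr13:99501014-99501313 on the minus strand with 16.
LINC00685: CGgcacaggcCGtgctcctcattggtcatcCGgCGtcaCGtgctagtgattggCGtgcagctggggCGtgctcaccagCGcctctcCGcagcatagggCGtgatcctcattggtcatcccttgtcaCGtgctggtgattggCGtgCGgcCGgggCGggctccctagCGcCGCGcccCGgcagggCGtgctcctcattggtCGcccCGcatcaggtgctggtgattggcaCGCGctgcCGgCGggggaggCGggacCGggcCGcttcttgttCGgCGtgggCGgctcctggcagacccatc
LINC00449: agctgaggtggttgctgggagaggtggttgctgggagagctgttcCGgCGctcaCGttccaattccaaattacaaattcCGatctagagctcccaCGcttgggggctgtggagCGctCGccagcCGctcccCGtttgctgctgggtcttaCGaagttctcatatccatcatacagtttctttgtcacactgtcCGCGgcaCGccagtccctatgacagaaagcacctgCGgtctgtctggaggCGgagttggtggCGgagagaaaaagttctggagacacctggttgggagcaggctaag
All 4 transcripts of these pairs were measured by separate probe sets.

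Promoter composition varied widely among members. RefSeq held a window for 102 of the members whose record is a long noncoding RNA, with 0 to 48 CG dinucleotides and a median of 8.5. The median was 4.0 over 265 LINC symbols below the filter, 22.0 over 15811 protein-coding genes and 13.0 over all 27195 windows. At least 20 CG were found in 23.5% of the 102.

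CG-poor and CG-rich windows occurred on both sides of 0. Of 36 members with a window and a difference above 0, 11 (30.6%) held at least 20 CG, with a median of 10.0. Of 64 below 0, 12 (18.8%) did, with a median of 7.0. The contrast was wider among the few with the largest differences. Of the 7 with a window and a difference of 0.3 or more, 5 held at least 20 CG, with a median of 33.0. Of the 9 at -0.3 or lower, 1 did, with a median of 7.0. All these groups include members that passed the filter on 1 array only, so the rule set their signs. Among those with the largest differences they were LINC02139 on the high side and LINC00940 on the low side. The shares were not counted without them. Both cut-offs were chosen after the values were seen. Over all 102, Pearson's r between CG count and difference was 0.26 and Spearman's rho 0.12, a description over genes from the same 2 arrays. The windows of the most different members that had one show the contrast, again with CG in capitals. LINC00471 lies at chr2:231514328-231514627 on the minus strand with 33 CG and LINC00899 at chr22:46044819-46045118 on the minus strand with 48. LINC00997 lies at chr7:32758036-32758335 on the plus strand with 1 CG, and CYTOR (LINC00152) at chr2:87455177-87455476 on the plus strand with 5.
LINC00471: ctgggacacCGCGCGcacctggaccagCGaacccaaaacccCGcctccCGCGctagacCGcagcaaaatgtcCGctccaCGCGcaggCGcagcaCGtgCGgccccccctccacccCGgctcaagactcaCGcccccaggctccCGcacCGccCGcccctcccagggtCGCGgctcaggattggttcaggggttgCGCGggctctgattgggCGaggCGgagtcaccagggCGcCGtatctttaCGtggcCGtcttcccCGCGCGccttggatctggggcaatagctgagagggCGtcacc
LINC00899: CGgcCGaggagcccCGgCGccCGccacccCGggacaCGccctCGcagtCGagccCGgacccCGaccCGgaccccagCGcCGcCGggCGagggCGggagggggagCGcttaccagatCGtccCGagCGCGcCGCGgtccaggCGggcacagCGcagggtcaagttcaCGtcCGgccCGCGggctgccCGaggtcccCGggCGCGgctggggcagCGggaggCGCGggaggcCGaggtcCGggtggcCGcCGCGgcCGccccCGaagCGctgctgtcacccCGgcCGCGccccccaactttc
LINC00997: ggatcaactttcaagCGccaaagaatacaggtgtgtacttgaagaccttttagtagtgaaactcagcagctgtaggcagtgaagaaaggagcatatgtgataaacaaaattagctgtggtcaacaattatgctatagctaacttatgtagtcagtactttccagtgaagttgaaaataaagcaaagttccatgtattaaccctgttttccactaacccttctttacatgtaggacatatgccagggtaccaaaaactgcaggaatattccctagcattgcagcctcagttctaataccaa
CYTOR: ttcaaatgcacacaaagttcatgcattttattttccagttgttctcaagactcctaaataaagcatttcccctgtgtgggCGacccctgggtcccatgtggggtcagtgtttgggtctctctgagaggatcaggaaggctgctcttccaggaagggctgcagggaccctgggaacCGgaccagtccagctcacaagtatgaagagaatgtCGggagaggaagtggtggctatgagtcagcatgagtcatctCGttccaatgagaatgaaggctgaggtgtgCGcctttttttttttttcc
The first pair was higher and the second pair lower on the miR-491-5p array.

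**Figure D4:**
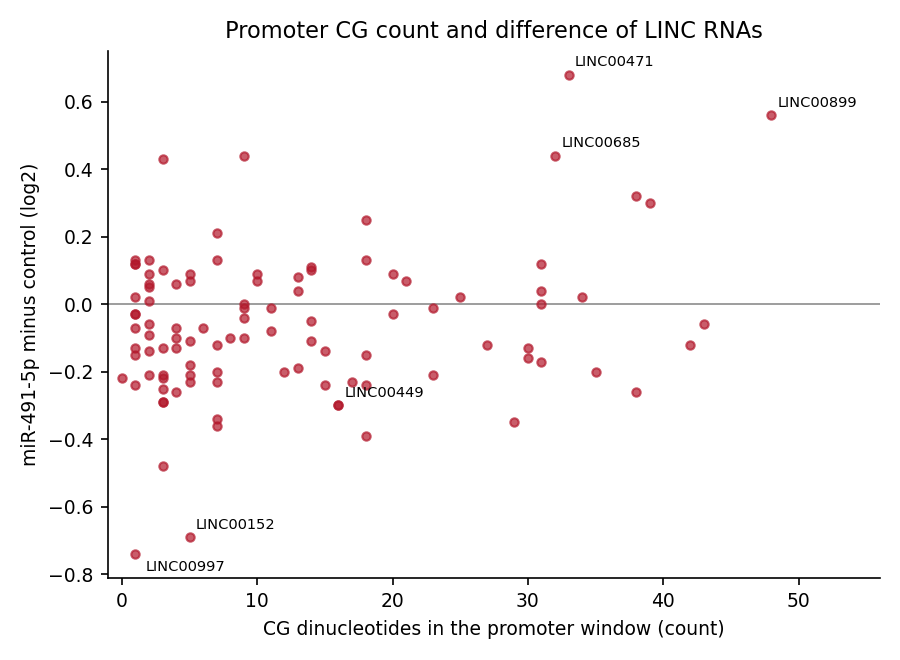
Number of CG dinucleotides in the 300-base promoter window (x axis, count) and miR-491-5p minus control difference (y axis, log2) for 102 LINC RNAs. LINC00471, LINC00899 and LINC00685 lie at the upper right with 33, 48 and 32 CG, and LINC00997 and LINC00152 at the lower left with 1 and 5, while most points lie near 0 at every CG count.

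Short motifs were searched on both strands of the same windows. The AP-1 type motif TGANTCA, where N is any base and which reads the same on both strands, was in 14.7% of the 102 windows, 14.3% of those of LINC symbols below the filter and 7.87% of all windows. CYTOR, LINC01002 and LINC01061 hold it. The GC-box GGGCGG, which contains a CG and so overlaps with the CG count, was in 32.4% of the member windows and 43.9% of all. TATAAA was in 11.8% and 12.1%, and the CREB-type motif TGACGTCA in 1.96% and 1.95%. A match here is a description of the letters and not a bound site.

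At the edge of the group, values lay close together on either side of the filter. Just inside were LINC00320 (5.40 on the miR-491-5p array, with its control value at the filter), LINC00364 (5.34 against 5.56) and LINC00442 (5.44 against 5.57). Just outside were LINC00692 (5.46 against 5.54), LINC00333 (5.51 against 5.53) and LINC01553 (5.25 against 5.53). For 19 of the 150 only 1 array reached the filter, so the rule set their signs. Of these, 15 passed with the control value and were below 0. Over the other 131 the median difference was -0.04. The 387 LINC symbols below the filter, again without LINC00941, had a median of -0.07 and a range from -0.70 to 0.52.

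Marker genes of the labelled tissue were present on both arrays. All 6 ovarian carcinoma markers passed the filter, with PAX8 at 14.59 against 14.77 and KRT8 at 15.17 against 15.61. KRT18 was lower by more than 1.5-fold on the miR-491-5p array (14.98 against 15.58), EPCAM was higher (13.29 against 12.93), and MUC16 was barely above the filter (5.94 against 5.89). The listed endothelial markers, PECAM1 and VWF, were both below it, whereas CDH5, an endothelial cadherin outside the list, read 11.10 against 13.23. Of the others, 1 of 3 leukocyte markers (CD3E) and 2 of 3 fibroblast markers (COL1A1 and THY1) were above it, and no marker of these 3 lists exceeded 5.94.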

How the data were processed

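RNA of the 2 cultures was labelled with biotin and read on 1 array each, per the labels' protocols. The deposited log2 signals per probe set come from RMA, as the submitters' processing notes name it. The sources used here give neither the software version nor the background correction, and the log2 base is taken from RMA. With 1 array per group, the number of arrays limits the precision, and signal over background is unknown.

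Of 67528 probe sets, 23781 carried 1 symbol in GEO's platform annotation. Each of 22465 genes took its probe set with the highest mean, and genes with a value of at least 5.55 log2, the median of both arrays' values, were kept. Members were matched to RefSeq (GRCh38.p14) by Entrez ID (109), symbol (28) or synonym (13). RefSeq gives 139 as LINC-numbered long noncoding RNAs and 5 as protein-coding genes. RefSeq gave neighbours, promoters and the miRNA sequence. Named were the 12 highest levels, the 15 largest differences each way (ties included), 3 genes on either side of the filter and listed members. Members and lists were chosen with earlier results of these data known. The selection and counts were tested on simulated data. Alternatives were median centring, loess (span 0.3), other filters, mean probe sets, 1.5-fold and 3-fold sizes, and current LINC records only. Python 3.11.15, numpy 2.4.6, pandas 2.3.3 and statsmodels 0.14.6 were used, with edlib for edit counts.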

Additional observations from a re-analysis of the deposited data

How the results depend on the processing

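Leaving out a replicate would empty a group. No paired analysis was possible because the arrays stand alone, 1 in each group. Counts past 2-fold were 0 lower and 0 higher under centring, loess, no filter and mean probe sets. They were also 0 with both arrays above the filter, a filter 1 log2 higher, current LINC records only and 3-fold. These last settings only drop members or raise the cut-off, so their counts of 0 were fixed in advance. At 1.5-fold the counts were 3 lower and 2 higher. With LINC00941, an alternative chosen after seeing the data, 1 was 2-fold lower. The alternatives at 1.5-fold were also added after seeing the data. There, 5 were lower without a filter (2 of them below the filter on both arrays), and current LINC records, which leave out LINC00152 (now CYTOR) and LINC00444, gave 2 lower and 1 higher. Centring and loess gave 3 higher each. The median difference of -0.07 became 0.0 under centring, 0.004 under loess, -0.04 with both arrays above the filter and -0.03 with the filter 1 log2 higher. Of 47 named members, LINC00662, LINC00963 and LINC01002 changed sign under centring and loess, and none did when probe sets were averaged. Dropping or changing the filter leaves each difference as it is, so no sign could change there. Centring shifted the named differences by 0.07, loess by 0.034 to 0.1, and averaging probe sets by -0.02 to 0.09. Read depth does not apply to arrays.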

Other observations

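LINC names also occur on probe sets shared with other symbols, which lie outside the comparison. There were 23 such probe sets, 12 of them above the filter, and their differences ran from -0.37 to 0.23. The probe set shared by LINC00673 and LINC00511 read 7.47 on the miR-491-5p array and 7.45 on the control array, whereas the probe set of LINC00511 alone read 5.33 and 5.12. The probe set shared by LINC00843 and TIMM23B, which encodes a mitochondrial import protein, read 11.54 and 11.80 (-0.26). The LINC00680 name is shared with GUSBP4 and GUSBP1, at 8.48 against 8.29 (0.19).

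Chromosome 13 held more members than any other in the RefSeq match, 19 of 150, with a median difference of -0.11. Chromosome 14 held 13 with a median of -0.13. How all 538 LINC symbols on the array divide among chromosomes was not counted. These counts therefore cannot be read as an excess among members. Among 9 members with more than 1 probe set, LINC02210 had differences of 0.04, 0.04 and -0.24, LINC00869 of -0.26 and -0.07, and LINC00960 of -0.24 and -0.20.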
